A study of Homo sapiens with 24 samples.

Results

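The 10 genes followed here were the G1 cyclins CCND1, CCND2, CCND3, CCNE1 and CCNE2 and the cyclin-dependent kinase (CDK) inhibitors CDKN1A, CDKN1B, CDKN2A, CDKN2B and CDKN2C. They were taken by symbol, as a set proposed with earlier results of these data known, and all 10 were found once each among the 48162 genes of every table. The libraries came from 2 human pancreas cell lines that were treated for 24 h in a 24-well plate, with 3 libraries for each of 8 groups. hTERT-HPNE (HPNE) carries an added telomerase gene, and HPDE-H6c7 (HPDE) is a clone of pancreatic duct epithelium immortalised with papillomavirus genes. Each line received fresh serum-free medium (untreated), residual medium left after vesicles had been isolated, or extracellular vesicles (EV) of 1 of 2 pancreas cancer cell sources, PANC-1 and PPCL-68, at 1e10 per well. All groups shared the same growth medium, a serum-free keratinocyte medium with penicillin and streptomycin. Residual medium was the control for the vesicle preparation, so vesicles against residual medium is the main comparison, and residual medium against untreated cells asks what the control itself did. The labels call the libraries biological triplicates but do not say how they were separated, so the p-values cover the spread between these libraries.

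A cell commits to copying its DNA late in G1. D-type cyclins join CDK4 or CDK6, and E-type cyclins join CDK2. These kinases phosphorylate the retinoblastoma protein, which then frees E2F factors to switch on genes for DNA replication, among them the E cyclins. The inhibitors oppose this in 2 families. The INK4 proteins p16 (CDKN2A), p15 (CDKN2B) and p18 (CDKN2C) bind CDK4 and CDK6, while p21 (CDKN1A) and p27 (CDKN1B) bind cyclin-CDK complexes. CDKN2A and CDKN2B are neighbours at a locus that is often lost in pancreatic cancer.

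Promoters are shown for the inhibitors CDKN1A and CDKN1B, which rose with vesicles in HPDE, and for CCNE1 and CDKN2C, which fell there. CCND3 and CDKN2A also fell there, and their windows, which held no E2F core, are not shown. The CDKN2C window shown is the only member window with the E2F core described below. Each is the 250 bases before a RefSeq transcription start (GRCh38.p14), read 5′ to 3′ on the strand of the gene, and all 4 genes lie on the plus strand. Capitals mark the motifs found, read on either strand.
CDKN1A, chr6:36678464-36678713: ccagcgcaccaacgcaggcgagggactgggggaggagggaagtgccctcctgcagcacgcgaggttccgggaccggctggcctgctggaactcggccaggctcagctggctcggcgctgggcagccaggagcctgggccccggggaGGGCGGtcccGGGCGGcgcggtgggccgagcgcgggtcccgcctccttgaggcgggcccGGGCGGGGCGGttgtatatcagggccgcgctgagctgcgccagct
CDKN1B, chr12:12717118-12717367: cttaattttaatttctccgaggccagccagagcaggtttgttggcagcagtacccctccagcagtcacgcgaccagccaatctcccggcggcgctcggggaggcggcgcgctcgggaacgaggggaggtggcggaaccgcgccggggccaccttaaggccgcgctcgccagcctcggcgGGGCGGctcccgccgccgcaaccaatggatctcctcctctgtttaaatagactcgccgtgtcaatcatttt
CCNE1, chr19:29811741-29811990: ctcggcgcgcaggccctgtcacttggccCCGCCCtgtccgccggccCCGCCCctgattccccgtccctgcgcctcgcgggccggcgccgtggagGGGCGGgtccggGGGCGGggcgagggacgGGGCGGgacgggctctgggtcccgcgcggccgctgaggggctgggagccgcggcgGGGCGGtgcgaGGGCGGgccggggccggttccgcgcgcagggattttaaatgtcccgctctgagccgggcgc
CDKN2C, chr1:50968456-50968705: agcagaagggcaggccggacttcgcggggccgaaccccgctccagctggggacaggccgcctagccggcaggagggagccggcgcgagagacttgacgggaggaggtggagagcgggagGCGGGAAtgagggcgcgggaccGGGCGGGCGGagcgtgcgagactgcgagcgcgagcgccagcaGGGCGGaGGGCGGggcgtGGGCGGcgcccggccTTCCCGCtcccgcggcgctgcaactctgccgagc

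The GC box GGGCGG, which binds Sp-family factors, was found 4 times before CDKN1A, 1 time before CDKN1B, 7 times before CCNE1 and 5 times in this CDKN2C window, counting overlapping matches. It was present in 42.64% of 35116 windows of the same length before RefSeq starts. The E2F core, searched as TTCCCGC, with TTCGCGC counted too, then TTGCCGC and finally TTGGCGC, was found 2 times in this CDKN2C window and in 10.88% of all windows, and not in the other 3. These letters replaced longer ones after those had been searched. The first E2F letters, the same 4 with 1 more T in front, were in 0 of the members' 12 windows and in 2.79% of all windows. The first GC box, GGGGCGGGG, was in 3 of the 12 and in 15.1% of all, against 9 of the 12 for the shorter GC box. The E2F matches in CDKN2C therefore rest on the shorter letters, chosen after the first result was seen. Of 7 motifs searched, the other 5 (TATA box, CRE, CHR, E-box and CARE) are not described. The table held 12 windows for 7 of the 10 members, with 3 starts for CDKN2C. Across the 12, the E2F core appeared in that single CDKN2C window. A match describes the letters and not a bound site.

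Gene positions are those of the deposited tables (hg19). CDKN2A (chr9:21967751-21995300) and CDKN2B (chr9:22002902-22009362) lie on the minus strand and share the antisense gene CDKN2B-AS1, which overlaps both. The library kit kept no strand, so reads of overlapping genes on opposite strands cannot be told apart. CDKN2B-AS1 stood at 0.308 FPKM or less in every library. CCND1 (chr11:69455855-69469242) overlaps ORAOV1 at one end, and CCNE2 overlaps INTS8 and NDUFAF6, whose means in HPNE were 5.27 and 2.04 FPKM against 0.873 FPKM for CCNE2. The part of that overlap in the CCNE2 values was not tested. The CDKN2A row holds the p16 and the ARF transcripts together.

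Values are FPKM, that is reads scaled to gene length and library size, so levels of different genes can be compared per length. Reads assigned to genes ranged from 29874928 to 46490312 per HPNE library and from 29209142 to 42206773 per HPDE library. In HPNE the telomerase gene TERT had 201.4 ± 113 FPKM (SD, n = 12), and the fibroblast collagen COL1A1 had 2701 ± 1098 FPKM, while the duct marker EPCAM had at most 12 reads in a library and KRT19 at most 0.905 FPKM. The label of a normal pancreas cell is therefore not matched by duct markers in HPNE. VIM and NES, listed with TERT as markers of this line, averaged 294 and 26.2 FPKM in HPNE, against 23.5 and 2.70 FPKM in HPDE. In HPDE, EPCAM (172 FPKM) and KRT19 (689 FPKM) were high. Summed acinar, endocrine, endothelial and leukocyte markers were at or below 0.2 FPKM in every library. In each HPNE group 1 library lay apart from the other pair: untreated replicate 3, residual medium replicate 3, PANC-1 EV replicate 1 and PPCL-68 EV replicate 1. Its distance over all genes tested was 2.05 to 3.31 times the distance within the pair, against 1.08 to 1.24 times in HPDE. HPNE results are therefore also given without these 4 libraries. That choice was made after seeing the data and lowers the spread by construction, so the values without them are read here for size and direction. Counts of genes that passed without them are affected by this, so they describe the setting and are not used as support.

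**Figure D1:**
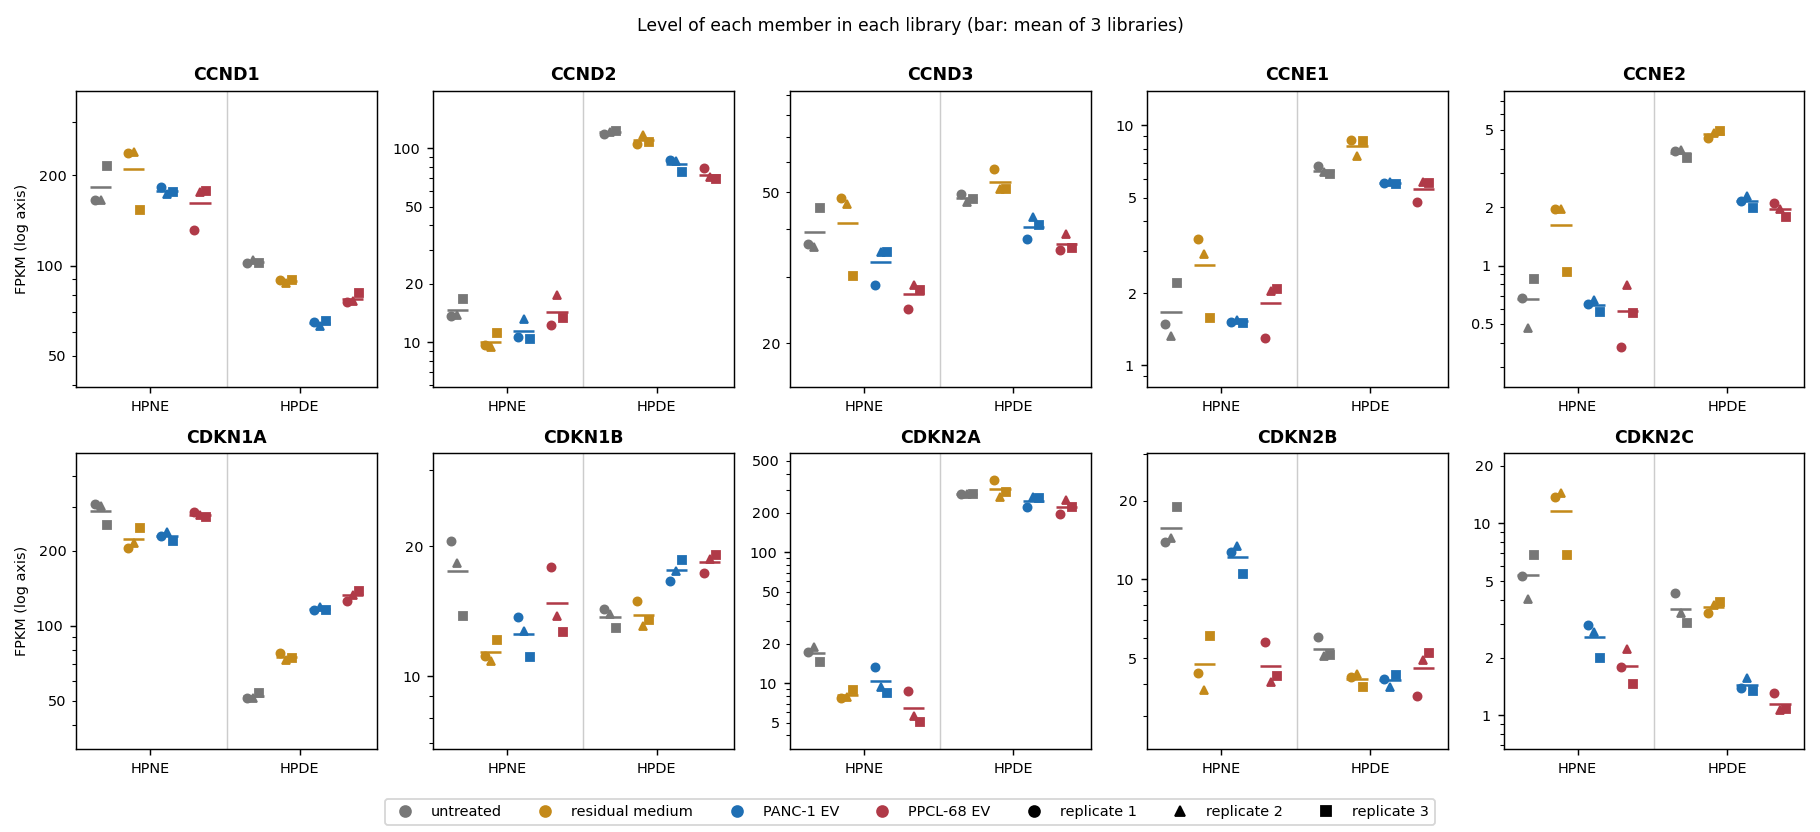
FPKM of each member in each of the 24 libraries, on a log axis of its own for each gene. Points are libraries, with the replicate number given by shape and the group by colour, and bars are means of 3. CDKN2A and CCND2 stand far higher in HPDE, CDKN1A and CCND1 higher in HPNE, and the CDKN2C points with vesicles lie below residual medium in both lines.

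The 2 lines carried different sets of G1 regulators before any treatment. In untreated HPNE the order of mean FPKM (SD, n = 3) was CDKN1A (288.1 ± 30.5), CCND1 (182.1 ± 28.8), CCND3 (39.3 ± 5.43), CDKN1B (17.5 ± 3.45), CDKN2A (16.9 ± 2.22), CDKN2B (15.7 ± 2.78), CCND2 (14.7 ± 1.68), CDKN2C (5.39 ± 1.401), CCNE1 (1.67 ± 0.467) and CCNE2 (0.671 ± 0.189). From CDKN1B down to CCND2 each neighbour lay within 1 SD of the next. In untreated HPDE the order was CDKN2A (279.1 ± 1.63), CCND2 (120.9 ± 2.52), CCND1 (103 ± 1.41), CDKN1A (52.0 ± 1.37), CCND3 (48.3 ± 1.07), CDKN1B (13.7 ± 0.718), CCNE1 (6.48 ± 0.243), CDKN2B (5.43 ± 0.511), CCNE2 (3.798 ± 0.198) and CDKN2C (3.60 ± 0.683). There only CCNE2 and CDKN2C lay within 1 SD of each other among neighbours. Over all 12 HPDE libraries, treatments included, CDKN1A averaged 94.1 ± 33.7 FPKM and CCND1 83.4 ± 14.9.

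CDKN2A, the p16 and ARF gene, had 278.7, 277.7 and 280.9 FPKM in untreated HPDE and 17.2, 19.0 and 14.6 FPKM in untreated HPNE. Its mean was 16.5-fold higher in HPDE, a log2 difference of 3.97 ± 0.17 (SE; limma adjusted p = 7.8e-15). CCND2, a D-type cyclin, had 118.2, 121.5 and 123.1 FPKM in HPDE and 13.6, 13.9 and 16.6 FPKM in HPNE, 8.22-fold higher in HPDE. For both genes the 2 lines were far apart in every library. CDKN1A, encoding p21, went the other way, with 51.1, 51.3 and 53.6 FPKM in HPDE and 308, 303 and 253 FPKM in HPNE, 5.54-fold lower in HPDE. CCNE1 was 3.88-fold and CCNE2 5.66-fold higher in HPDE, CCND1 was 1.77-fold and CDKN2B 2.90-fold higher in HPNE.

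All 10 members passed the test between the untreated lines, 5 higher and 5 lower in HPDE, where 84.0% of all 13243 genes tested passed (56.0% higher, 28.0% lower). So a difference between the lines was the rule, and the sizes are the information. The lines also differ in how they were made immortal, which acts on these genes, and its part in the differences was not tested. The FPKM scale put the median of all genes 0.38 higher (log2) in HPDE, and division by size factors brought it to 0.04 and the split of higher against lower calls from 7415 and 3708 to 5659 and 5220. CCND3 turned with it, from 0.30 to -0.11 (adjusted p = 0.44), and its call was lost without HPNE untreated replicate 1 or 2 or any single HPDE untreated library (adjusted p 0.065 to 0.15). CDKN1B (-0.31) lost its call without HPNE untreated replicate 1 (-0.20, adjusted p = 0.15) or 2 or HPDE untreated replicate 3 (adjusted p 0.071 and 0.072). CDKN2C (-0.46) lost it without HPNE untreated replicate 1 or 3 or HPDE untreated replicate 2 or 3 (-0.46, -0.30, -0.44 and -0.37; adjusted p 0.07 to 0.19).

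The D-type cyclins divided differently between the lines. CCND1 made up 77.1% ± 0.44 of the summed D-cyclin FPKM in untreated HPNE (SD, n = 3), and its mean share was between 77.1 and 80.1% in all 4 HPNE groups. In untreated HPDE, CCND2 held 44.4% ± 0.62, CCND1 37.8% ± 0.45 and CCND3 17.7% ± 0.52. With PPCL-68 EV the HPDE shares were 41.4% ± 1.90 for CCND1 and 39.1% ± 2.23 for CCND2. The summed level in HPDE was 272.2 ± 2.08 FPKM in untreated cells, 251.5 ± 3.56 with residual medium, 187.9 ± 4.90 with PANC-1 EV and, for PPCL-68 EV, 187.4 ± 1.81, and the libraries of the 2 vesicle groups overlapped. The smallest two-sided p that an exact permutation test of 3 libraries against 3 can give is 0.1, so these sums are given as values.

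**Figure D2:**
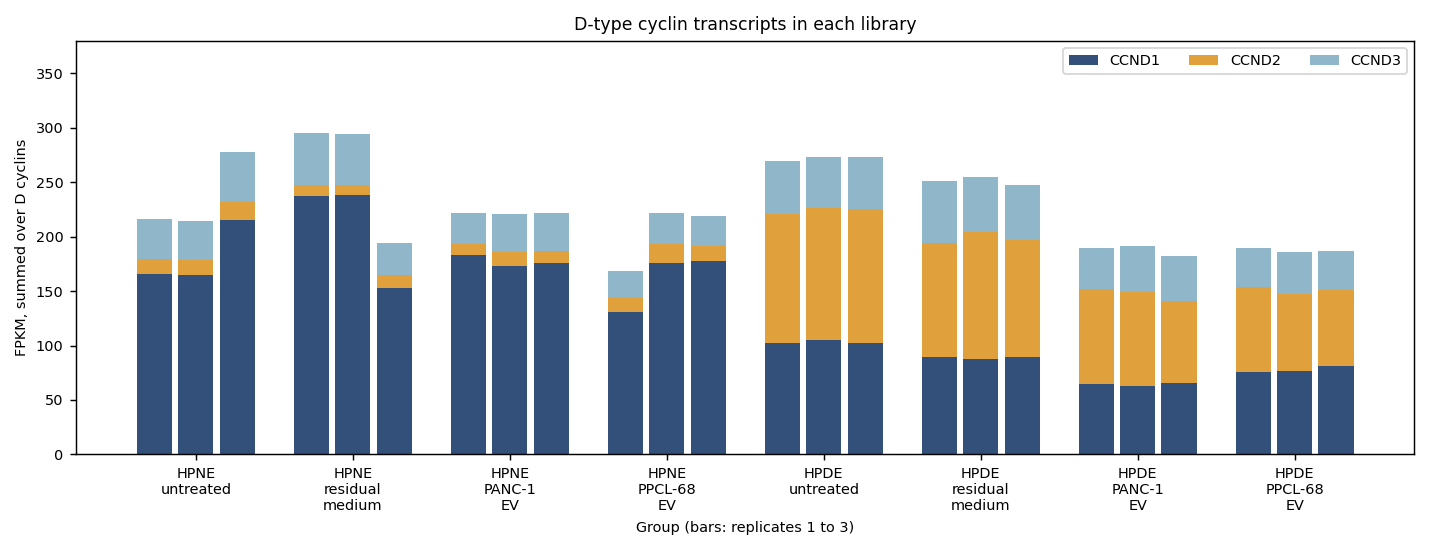
Stacked bars of CCND1, CCND2 and CCND3 FPKM in each library, with 3 bars per group for replicates 1 to 3. CCND1 fills most of each HPNE bar, CCND2 and CCND1 share the HPDE bars, and the 6 HPDE bars with vesicles are shorter than the 6 without.

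In HPDE, vesicles of both sources went with less cyclin and more p21 and p27 message than residual medium. All 5 G1 cyclins fell, CDKN1A and CDKN1B rose, and CDKN2A and CDKN2C fell. That made 9 of 10 members called with PANC-1 EV (2 higher, 7 lower), where 63.3% of 12223 genes passed (28.2% higher, 35.1% lower). PPCL-68 EV also gave 9 of 10 (2 higher, 7 lower), where 67.7% passed (31.3% higher, 36.4% lower). CDKN2B was the member not called in either. Most genes passed in HPDE, so the description rests on the direction and size of each member. The share of all genes whose groups did not overlap was not counted in HPDE. A lack of overlap given below therefore describes the values and is not particular to a member. The 3 residual medium libraries serve as controls in both. Summed duct markers also differed: they lay between 3850 and 4414 FPKM with residual medium, between 2086 and 2422 with PANC-1 EV, and in the PPCL-68 EV libraries between 1840 and 1899. Their part in these results was not tested. In bulk RNA, fewer cells in a phase and less RNA per cell cannot be told apart.

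CCNE2 fell the most of the cyclins. It had 4.55, 4.84 and 4.94 FPKM with residual medium, 2.14, 2.29 and 1.99 with PANC-1 EV, and 2.11, 1.96 and 1.78 with PPCL-68 EV. Every vesicle library lay below every control library. The mean was 2.24-fold lower with PANC-1 EV (log2 -0.88 ± 0.07; limma adjusted p = 8.3e-08) and for PPCL-68 EV 2.45-fold lower (-0.97 ± 0.07; adjusted p = 1.8e-08). CCNE1, the other E-type cyclin, had 8.67, 7.42 and 8.61 FPKM with residual medium, 5.77, 5.81 and 5.68 with PANC-1 EV, and 4.81, 5.79 and 5.74 with PPCL-68 EV. Its differences were -0.45 ± 0.07 and -0.52 ± 0.07 (adjusted p = 7.4e-05 and 1.4e-05).

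CCND1 responded more to PANC-1 EV than to PPCL-68 EV. It had 89.2, 87.2 and 89.2 FPKM with residual medium, 64.9, 63.0 and 65.4 with PANC-1 EV, and 75.4, 76.1 and 81.2 with PPCL-68 EV. The 3 groups did not overlap. The falls were -0.45 ± 0.04 and -0.19 ± 0.04 (adjusted p = 2.1e-07 and 0.00062), and the 2 sources differed by -0.26 ± 0.04 (adjusted p = 7.5e-05). CCND2 had 104.7, 116.7 and 107.8 FPKM with residual medium, 86.9, 85.9 and 75.9 with PANC-1 EV, and 78.8, 71.2 and 69.7 with PPCL-68 EV. Its falls were -0.40 ± 0.06 and -0.58 ± 0.06 (adjusted p = 4.8e-05 and 9.9e-07). CCND3 had 57.7, 51.1 and 50.9 FPKM with residual medium, 37.6, 43.0 and 41.1 with PANC-1 EV, and 35.3, 38.8 and 35.8 with PPCL-68 EV, falls of -0.38 ± 0.06 and -0.53 ± 0.06.

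CDKN1A showed the largest rise of any member in HPDE. It had 51.1, 51.3 and 53.6 FPKM in untreated cells, 77.7, 72.7 and 74.6 with residual medium, 115.8, 119.5 and 115.6 with PANC-1 EV, and 126.2, 132.6 and 138.6 with PPCL-68 EV. The 4 groups formed 4 steps with no overlap. Against residual medium the mean was 1.56-fold higher with PANC-1 EV (log2 0.64 ± 0.04; adjusted p = 2.2e-08) and for PPCL-68 EV 1.77-fold higher (0.81 ± 0.04; adjusted p = 9.5e-10). PPCL-68 EV stood above PANC-1 EV (PANC-1 minus PPCL-68, -0.18 ± 0.04; adjusted p = 0.0040). CDKN1B had 14.9, 13.1 and 13.5 FPKM with residual medium, 16.6, 17.5 and 18.6 with PANC-1 EV, and 17.4, 18.6 and 19.1 with PPCL-68 EV, and rose by 0.33 ± 0.06 and 0.39 ± 0.06 (adjusted p = 0.00030 and 5.3e-05).

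Of the INK4 inhibitors, CDKN2C moved with the cyclins and not with p21 and p27. It had 3.42, 3.74 and 3.90 FPKM with residual medium, 1.39, 1.57 and 1.34 with PANC-1 EV, and 1.31, 1.07 and 1.08 with PPCL-68 EV. The mean was 2.57-fold lower with PANC-1 EV (log2 -0.95 ± 0.10; adjusted p = 1.3e-06) and for PPCL-68 EV 3.21-fold lower (-1.12 ± 0.10; adjusted p = 1.4e-07). CDKN2A, the most abundant member in this line, had 356, 264 and 288 FPKM with residual medium, 224, 263 and 258 with PANC-1 EV, and 196, 252 and 223 with PPCL-68 EV. Its fall with PANC-1 EV (-0.28 ± 0.10; adjusted p = 0.028) was lost without residual medium replicate 1 (-0.15; adjusted p = 0.16) or PANC-1 EV replicate 1 (-0.20; adjusted p = 0.12), and the nearest libraries of its groups, at 264 and 263 FPKM, almost met. The fall with PPCL-68 EV was -0.43 ± 0.10 (adjusted p = 0.0017). CDKN2B differed by -0.01 with PANC-1 EV (95% interval -0.22 to 0.20) and by 0.10 with PPCL-68 EV (-0.11 to 0.32). Without PPCL-68 EV replicate 1 the second value was 0.24 and passed (adjusted p = 0.016).

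**Figure D3:**
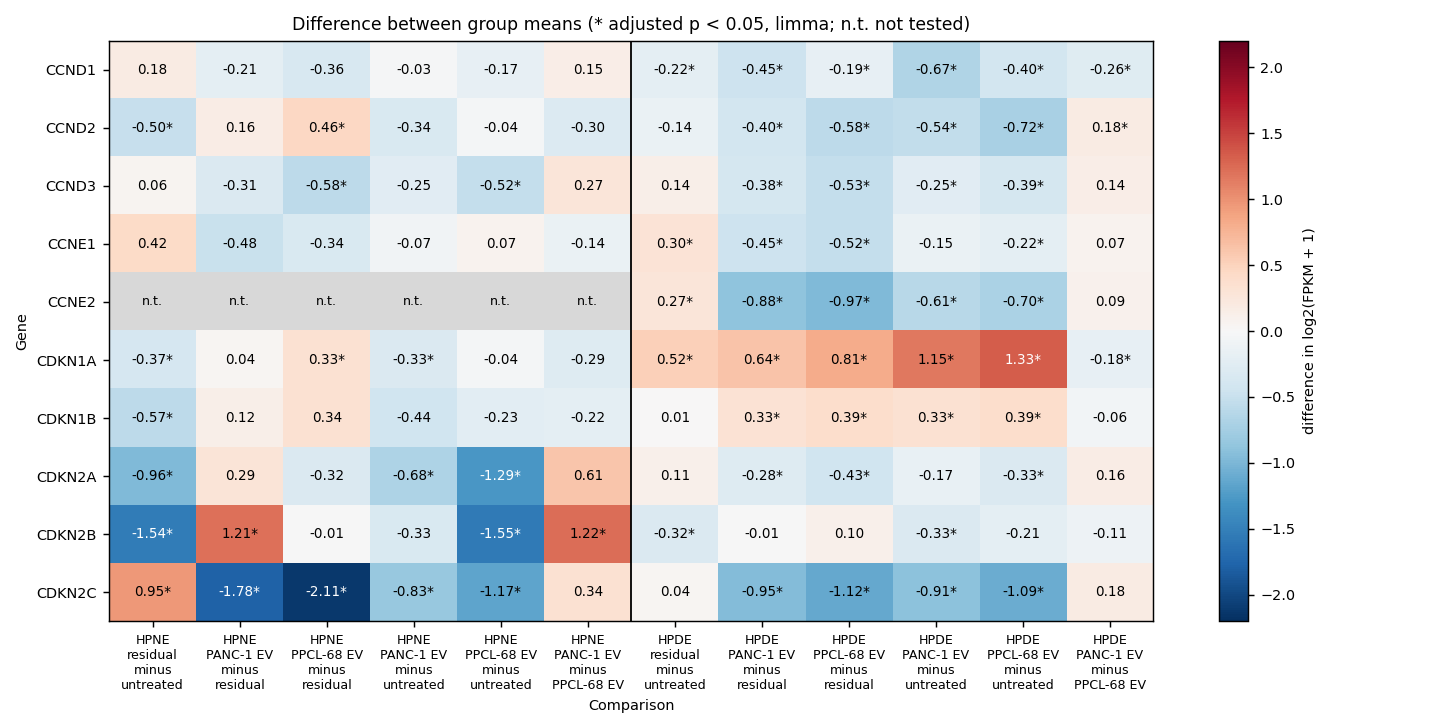
Difference in log2(FPKM + 1) between group means for each member (rows) in each within-line comparison (columns, HPNE left, HPDE right). Red is higher and blue lower in the group named first, asterisks mark a limma adjusted p under 0.05, and grey cells were not tested. In HPDE the cyclin rows are blue in both vesicle columns against residual medium and the CDKN1A row is red.

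The other genes of this pathway gave the setting for these values. Of 16 S phase genes, all 16 fell in HPDE with PANC-1 EV (median log2 -0.53, against -0.04 over all genes) and all 16 with PPCL-68 EV (median -1.17, against -0.03). The origin recognition gene ORC1 (-1.10) and the helicase subunit MCM5 (-1.09) fell most with PANC-1 EV, and RRM2 (-1.84) and CDC45 (-1.81) with PPCL-68 EV. Of all genes, 28.2% rose and 35.1% fell with PANC-1 EV, and 31.3% rose and 36.4% fell with PPCL-68 EV. Of 22 other G1 and G1/S genes, 6 rose and 11 fell with PANC-1 EV, and 5 rose and 13 fell with PPCL-68 EV. The rises in this list were thus no more frequent than over all genes. E2F1 fell by 0.87 and by 1.48, and CCNA2, the cyclin of S phase, by 0.30 and 0.61 on the log2 scale. SKP2, part of the ligase that marks p27 for degradation, fell by 0.98 with PANC-1 EV. The repressor E2F7 rose by 1.46 and 1.21, and CDKN1C, which encodes the inhibitor p57, by 1.47 with PPCL-68 EV. CDK6 rose by 0.50 and 0.27, while CDK4 differed by -0.02 with PANC-1 EV (adjusted p = 0.75) and fell by 0.22 with PPCL-68 EV. RB1 rose by 0.26 with PANC-1 EV (adjusted p = 0.0012) and differed by 0.05 with PPCL-68 EV (adjusted p = 0.49).

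CDKN1A is a well-known target of p53. HPDE was immortalised with papillomavirus genes, and their part in the p53 targets and in the members was not tested. Of 14 other p53 targets in HPDE, 4 rose and 3 fell with PANC-1 EV (median 0.10, against -0.04 over all genes), where 28.2% of all genes rose and 35.1% fell. With PPCL-68 EV 7 rose and 4 fell (median 0.21, against -0.03), where 31.3% rose and 36.4% fell. MDM2, the p53 ligase, rose by 0.52 and 0.42, and XPC, a DNA repair gene, by 0.73 and 0.72. FDXR fell by 0.62 and 0.88.

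Residual medium itself changed 5 of 10 members in HPDE against untreated cells (3 higher, 2 lower), where 20.0% of all genes passed (9.93% higher, 10.1% lower). CDKN1A rose by 0.52 ± 0.04 (adjusted p = 1.4e-06), in the same direction as with vesicles. CCNE1 rose by 0.30 ± 0.07 (adjusted p = 0.0093), from 6.75, 6.41 and 6.28 FPKM, and CCNE2 by 0.27 ± 0.07 (adjusted p = 0.016), from 3.87, 3.95 and 3.57 FPKM, opposite in sign to the vesicle comparisons. The same residual medium libraries enter both kinds of comparison, with opposite signs. The CCNE2 call was lost without untreated replicate 3 (adjusted p = 0.067) or residual medium replicate 3 (adjusted p = 0.059). CCND1 fell by 0.22 ± 0.04 from 102.2, 104.6 and 102.1 FPKM. CDKN2B fell by 0.32 ± 0.10 from 6.02, 5.12 and 5.14 FPKM, but its call (adjusted p = 0.037) was lost when any 1 of the 6 libraries was left out (-0.25 to -0.35; adjusted p 0.053 to 0.15). The count was 3 without replicate 3 of either group.

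Against untreated HPDE cells, 8 members passed with PANC-1 EV (2 higher, 6 lower), where 60.6% of all genes passed (26.3% higher, 34.4% lower). PPCL-68 EV gave 9 (2 higher, 7 lower), against 66.3% of all genes (30.1% higher, 36.1% lower). CDKN1A stood 1.15 ± 0.04 and 1.33 ± 0.04 above untreated, and CCND1 0.67 and 0.40 below it (differences of -0.67 and -0.40). CCNE1 ended near its untreated level, at -0.15 ± 0.07 with PANC-1 EV (adjusted p = 0.087). With PPCL-68 EV it was -0.22 ± 0.07 (adjusted p = 0.014). That call was lost without untreated replicate 1 (adjusted p = 0.053) or PPCL-68 EV replicate 1 (-0.14; adjusted p = 0.078). CDKN2A with PPCL-68 EV (-0.33; adjusted p = 0.011) was lost without PPCL-68 EV replicate 1 (-0.24; adjusted p = 0.063), and CDKN2B with PANC-1 EV (-0.33; adjusted p = 0.011) without untreated replicate 1 (-0.26; adjusted p = 0.054).

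The 2 vesicle sources, compared directly in HPDE, differed in 3 of 10 members (1 higher, 2 lower with PANC-1 EV), where 50.1% of all genes differed (25.2% higher, 24.9% lower). Beside CCND1 and CDKN1A above, CCND2 was higher with PANC-1 EV by 0.18 ± 0.06 (adjusted p = 0.026). That call was lost without PANC-1 EV replicate 1 or 2 or PPCL-68 EV replicate 2 or 3 (0.14 to 0.16; adjusted p 0.083 to 0.10). CCND3 (0.14; adjusted p = 0.057) passed without PANC-1 EV replicate 1 (0.19; adjusted p = 0.018) or PPCL-68 EV replicate 2 (0.18; adjusted p = 0.032), and CDKN2B (-0.11; adjusted p = 0.36) without PPCL-68 EV replicate 1 (-0.25; adjusted p = 0.018). For the E cyclins and CDKN1B the 95% intervals of the difference lay between -0.19 and 0.24.

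In HPNE the control medium changed all 5 inhibitors, where 43.9% of all genes passed, and CDKN2B most. CDKN2C rose and the other inhibitors fell. The calls of CDKN1A, CDKN1B and CDKN2C rested on single libraries, as given below. The same residual medium libraries are the controls for the vesicles, where they enter with the opposite sign. CDKN2B, encoding p15, had 13.9, 14.3 and 18.9 FPKM in untreated cells, 4.40, 3.78 and 6.10 with residual medium, 12.7, 13.4 and 10.5 with PANC-1 EV, and 5.75, 4.05 and 4.27 with PPCL-68 EV. The untreated and PANC-1 EV libraries were all high and the residual medium and PPCL-68 EV libraries all low. Residual medium was 3.30-fold below untreated (log2 -1.54 ± 0.17; limma adjusted p = 0.00013). PANC-1 EV was 2.56-fold above residual medium (1.21 ± 0.17; adjusted p = 0.0011), PPCL-68 EV differed from it by -0.01 (95% interval -0.39 to 0.37), and the 2 sources differed by 1.22 ± 0.17 (adjusted p = 0.0043). Each of these 3 calls held with each library left out, and without the 4 libraries that lay apart the values were -1.57, 1.34 and 1.32.

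With no replicate block, CDKN2B was the 1 member of 9 tested that separated the vesicle sources in HPNE, where 5.47% of all genes passed (3.22% higher, 2.25% lower). CDKN2A, its neighbour, differed by 0.61 ± 0.19 (adjusted p = 0.086), and passed without PPCL-68 EV replicate 1 (0.82; adjusted p = 0.021). Same-numbered libraries of these 2 groups deviated together, and a fit of the 6 libraries with the replicate number as a block called 4 members, where 16.6% of all genes passed. In that paired fit CDKN2B (1.22 ± 0.11; limma adjusted p = 0.0058), CDKN2A (0.61 ± 0.07; adjusted p = 0.0079) and CCND3 (0.27 ± 0.07; adjusted p = 0.045) were higher with PANC-1 EV and CCND2 lower (-0.30 ± 0.07; adjusted p = 0.042). This fit was added after seeing the data, and its pairing was picked for its correlation and not from the labels. Replicate 1 was the library apart in both groups. Such a pairing lowers the spread by construction, so the paired values are read for size and direction. Without the 4 libraries apart, 6 members passed, where 36.4% of all genes did. CCND3 (0.30), CDKN2A (0.64) and CDKN2B (1.32) were higher and CCND2 (-0.36), CCNE1 (-0.28) and CDKN1A (-0.27) lower with PANC-1 EV.

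CDKN2C showed the largest changes of any member in HPNE. It had 5.31, 4.03 and 6.83 FPKM in untreated cells, 13.7, 14.5 and 6.82 with residual medium, 2.95, 2.73 and 2.00 with PANC-1 EV, and 1.78, 2.21 and 1.45 with PPCL-68 EV. Residual medium replicate 3 sat at the level of untreated replicate 3, and every vesicle library lay below every control library. For PPCL-68 EV against residual medium, groups did not overlap for 48.4% of all genes, and for PANC-1 EV this share was not counted. Against residual medium the mean was 4.56-fold lower with PANC-1 EV (-1.78 ± 0.25; adjusted p = 0.0010) and for PPCL-68 EV 6.43-fold lower (-2.11 ± 0.25; adjusted p = 0.00016), calls that held with each library left out. Without the 4 libraries apart they were -2.17 and -2.43. Residual medium was 2.16-fold above untreated (0.95 ± 0.25; adjusted p = 0.012), a call lost without untreated replicate 2 or residual medium replicate 1 or 2 (0.79, 0.81 and 0.77; adjusted p 0.051 to 0.054) and 1.42 without the 4 libraries apart.

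The counts in HPNE against residual medium were 2 of 9 members with PANC-1 EV (1 higher, 1 lower), where 24.2% of 11503 genes passed (13.9% higher, 10.3% lower). PPCL-68 EV gave 4 of 9 (2 higher, 2 lower), against 39.9% of genes (20.3% higher, 19.7% lower). Both shares are near the background. CCNE2 fell under the filter of a mean of 1 FPKM in this line. Without residual medium replicate 3 the counts were 5 and 6, where 38.6% and 47.0% of all genes passed, and without the 4 libraries apart 5 and 8, where 58.9% and 65.5% passed. The counts over all genes thus rose along with the members' counts. With PPCL-68 EV, CCND3 had 24.6, 28.5 and 27.7 FPKM against 48.2, 46.6 and 30.1 with residual medium (-0.58 ± 0.17; adjusted p = 0.018). CCND2 had 12.3, 17.4 and 13.4 against 9.66, 9.41 and 11.2 FPKM (0.46 ± 0.14; adjusted p = 0.020). CDKN1A had 286, 279 and 274 against 205, 216 and 247 FPKM (0.33 ± 0.10; adjusted p = 0.027).

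The groups of these 3 genes did not overlap, as was so for 48.4% of all genes, and each call rested on single libraries. CCND3 was lost without residual medium replicate 1 or 2 (-0.46 and -0.49) or PPCL-68 EV replicate 1 (-0.52; adjusted p 0.057 to 0.078). CCND2 was lost without residual medium replicate 1 or 2 (0.44 and 0.42) or PPCL-68 EV replicate 2 (0.32; adjusted p 0.065 to 0.080). CDKN1A was lost without residual medium replicate 1 (0.28) or 2 (0.31) or any 1 PPCL-68 EV library (0.32 to 0.35; adjusted p 0.056 to 0.11). Without the 4 libraries apart the differences were -0.73, 0.63 and 0.39, in the same directions.

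CCND1 and CCNE1 in HPNE depended on residual medium replicate 3. CCND1 had 237, 238 and 153 FPKM with residual medium, 183, 173 and 176 with PANC-1 EV, and 131, 176 and 178 with PPCL-68 EV, and that replicate alone fell among the vesicle libraries. The differences, -0.21 ± 0.18 and -0.36 ± 0.18 (adjusted p = 0.41 and 0.14), were -0.42 and -0.57 without that replicate (adjusted p = 0.047 and 0.011). CCNE1 had 3.37, 2.90 and 1.58 FPKM with residual medium, 1.52, 1.55 and 1.50 with PANC-1 EV, and 1.30, 2.05 and 2.09 with PPCL-68 EV. Its differences, -0.48 ± 0.20 and -0.34 ± 0.20 (adjusted p = 0.091 and 0.19), were -0.71 and -0.57 without that replicate (adjusted p = 0.0068 and 0.016). CCND3 with PANC-1 EV went from -0.31 (adjusted p = 0.19) to -0.53 (adjusted p = 0.0079), and CDKN2A with PPCL-68 EV passed without PPCL-68 EV replicate 1 (-0.53 in place of -0.32; adjusted p = 0.034).

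**Figure D4:**
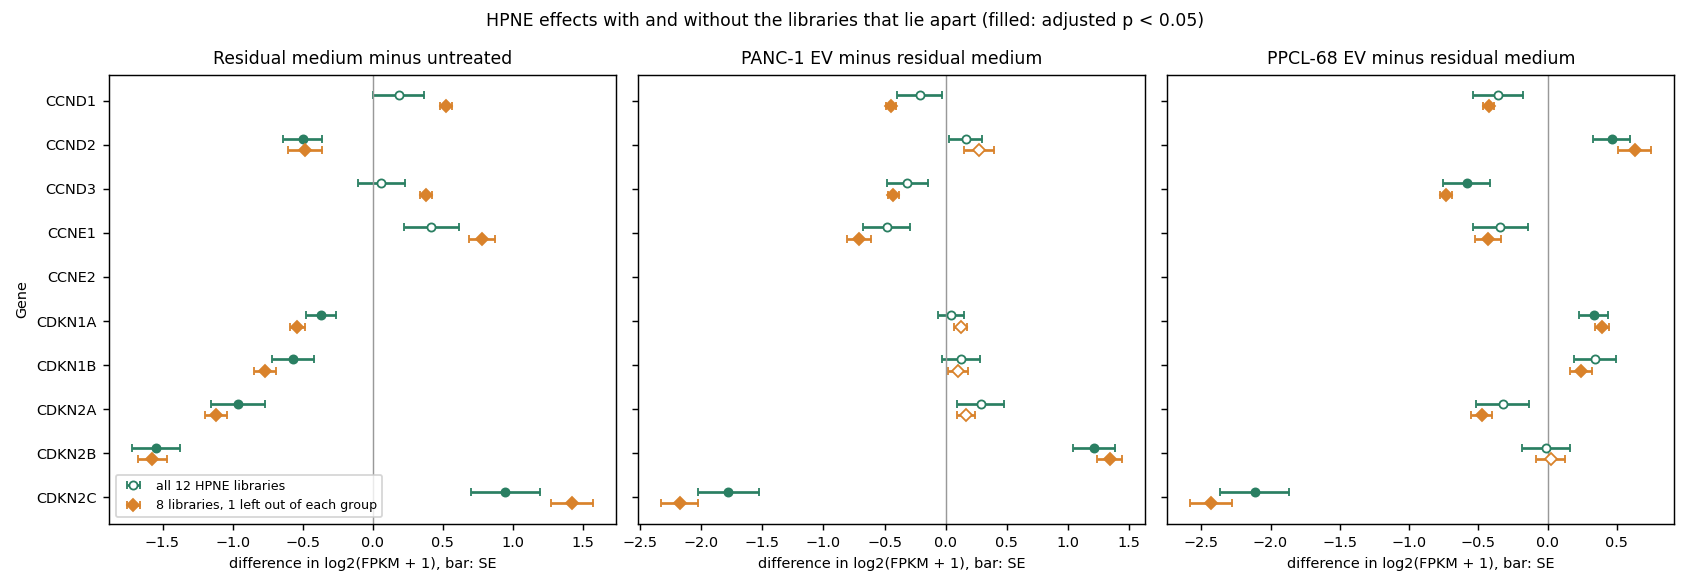
Difference in log2(FPKM + 1) for each member in HPNE in 3 comparisons, from all 12 libraries (circles) and from the 8 left after removing 1 library of each group (diamonds), with bars of 1 SE. Filled marks passed the limma threshold of 0.05, and CCNE2 was not tested in this line. The removal lowers the spread by construction, so the diamonds are read for size and direction and not for their filling. The cyclins CCND1, CCND3 and CCNE1 move away from 0 when the libraries are removed, while CDKN2C keeps its direction in all 3 panels and CDKN2B in the first 2 panels.

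CCNE2 in HPNE had 0.679, 0.479 and 0.857 FPKM in untreated cells, 1.97, 1.95 and 0.928 with residual medium, 0.635, 0.665 and 0.578 with PANC-1 EV, and 0.379, 0.794 and 0.566 with PPCL-68 EV, from 48 to 281 reads per library. The residual medium libraries were higher than all others. In a fit with no filter, over 28966 genes, residual medium was 0.62 ± 0.18 above untreated (adjusted p = 0.038), PANC-1 EV -0.66 ± 0.18 against residual medium (adjusted p = 0.058) and PPCL-68 EV -0.71 ± 0.18 (adjusted p = 0.026).

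Residual medium against untreated HPNE cells changed 6 of 9 members (1 higher, 5 lower), where 43.9% of all genes passed (18.7% higher, 25.2% lower). Beside CDKN2B and CDKN2C, CDKN2A had 7.70, 7.89 and 8.94 FPKM against 17.2, 19.0 and 14.6 (-0.96 ± 0.19; adjusted p = 0.0032), 2.07-fold lower. CDKN1B had 11.1, 10.8 and 12.1 FPKM against 20.5, 18.3 and 13.7 (-0.57 ± 0.15; adjusted p = 0.013). CCND2 (-0.50 ± 0.14; adjusted p = 0.013) and CDKN1A (-0.37 ± 0.10; adjusted p = 0.016) also fell. The groups of these 4 genes did not overlap, as for 50.7% of all genes.

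The CDKN2A fall held with each library left out. CDKN1B was lost without untreated replicate 1 (-0.45; adjusted p = 0.058) or 2 (-0.53; adjusted p = 0.0502), CCND2 without residual medium replicate 2 (-0.46; adjusted p = 0.052), and CDKN1A without untreated or residual medium replicate 1 or 2 (-0.31 to -0.35; adjusted p 0.06 to 0.072). The count was 3 without untreated replicate 2 or residual medium replicate 2. Without residual medium replicate 3, CCND1 (0.40 in place of 0.18; adjusted p = 0.047) and CCNE1 (0.64 in place of 0.42; adjusted p = 0.0078) were called higher. Without the 4 libraries apart all 9 passed, as did 71.7% of all genes.

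Most of the S phase genes in HPNE rose with residual medium. Of 16 S phase genes, 15 rose against untreated cells (median 1.29, against -0.05 over all genes, of which 18.7% rose), from RRM2 (2.54) down. With PPCL-68 EV against residual medium 16 fell (median -1.35), where 19.7% of all genes fell. With PANC-1 EV 8 fell (median -0.91), where 10.3% of all genes fell, with MCM5 at -1.48 and ORC1 at -1.12. This count rested on single libraries: it was 1 without residual medium replicate 1 or 2, 16 without residual medium replicate 3, and 3 or 4 without any 1 PANC-1 EV library. The rise with residual medium covered 10 genes without residual medium replicate 1 or 2. Calls over all genes for PANC-1 EV against residual medium also moved with 1 library left out, as given in the last section. The share of all genes is not set beside these counts, so they describe the settings and are not particular to S phase genes. Against untreated HPNE cells 0 of 16 passed for either vesicle source (limma, and limma voom on recovered reads), with medians of 0.29 and -0.01 and 1 gene each at an unadjusted p under 0.05. Of all genes 21.1% and 42.5% passed there by limma. Without the 4 libraries apart, 13 rose and 1 fell with each source, where 62.7% and 69.5% of all genes passed. E2F1 and CCNA2 both rose by 1.72 with residual medium, and RB1 and CDK6 by 0.69 and 0.77.

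Of 19 other G1 and G1/S genes tested in HPNE, 11 rose and 3 fell with residual medium against untreated cells. Of all genes 18.7% rose and 25.2% fell there. Against residual medium, 1 rose and 6 fell with PANC-1 EV, where 13.9% of all genes rose and 10.3% fell. With PPCL-68 EV 2 rose and 9 fell, where 20.3% of all genes rose and 19.7% fell. The number that rose with residual medium was 5 without residual medium replicate 1 or 2 and 7 without untreated replicate 1 or 2. The number that fell with PANC-1 EV was 1 without PANC-1 EV replicate 1 or residual medium replicate 1 or 2, 3 without PANC-1 EV replicate 2 or 3, and 10 without residual medium replicate 3. The number that fell with PPCL-68 EV was 5 without residual medium replicate 1 or 2 and 6 without PPCL-68 EV replicate 1. The share of all genes with the same libraries left out is not set beside these counts, so they describe the settings.

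Among p53 targets, 10 of 14 fell with residual medium in HPNE (median -0.85, against -0.05 over all genes, of which 25.2% fell), led by TP53INP1 (-1.97) and BTG2 (-1.20), with MDM2 at -0.36. CDKN1A fell with them. Fibroblast markers shifted across the same groups: the lowest and highest summed levels were 5892 and 7159 FPKM in untreated HPNE, 3126 and 5878 in residual medium, 3893 and 5475 under PANC-1 EV, and 2367 and 3127 under PPCL-68 EV. Their part in the HPNE results was not tested.

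Against untreated HPNE cells, 3 of 9 members passed with PANC-1 EV (0 higher, 3 lower), where 21.1% of all genes passed (9.61% higher, 11.5% lower). PPCL-68 EV gave 4 (0 higher, 4 lower), against 42.5% of genes (18.7% higher, 23.8% lower). PPCL-68 EV left CDKN2B at -1.55 ± 0.17, CDKN2A at -1.29 ± 0.19 and CDKN2C at -1.17 ± 0.25 (adjusted p = 6.7e-05, 0.00042 and 0.0034), so the 3 INK4 members were all below untreated, and these calls held with each library left out. CCND3 (-0.52; adjusted p = 0.027) was lost without untreated replicate 3 (-0.42; adjusted p = 0.090) or any 1 PPCL-68 EV library (adjusted p 0.051 to 0.074). With PANC-1 EV, CDKN2A (-0.68; adjusted p = 0.030), CDKN2C (-0.83; adjusted p = 0.036) and CDKN1A (-0.33; adjusted p = 0.047) passed.

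All 3 of those calls with PANC-1 EV were lost without untreated replicate 1 or without PANC-1 EV replicate 2 or 3. CDKN2A and CDKN1A were also lost without untreated replicate 2, CDKN2C without untreated replicate 3 (-0.67), and CDKN1A without PANC-1 EV replicate 1 (adjusted p 0.066 to 0.17 over all these). Where the count fell to 0, the number at an unadjusted p under 0.05 was 4 without untreated replicate 1, 5 without PANC-1 EV replicate 2 and 3 without PANC-1 EV replicate 3. CDKN1B (-0.44; adjusted p = 0.058) passed without untreated replicate 3 (-0.60; adjusted p = 0.015). CDKN2B differed from untreated by -0.33 (95% interval -0.71 to 0.04) with PANC-1 EV.

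The responses of the 2 lines were then compared by an interaction term in 1 fit of all 24 libraries, over 10483 genes. It was taken as the HPDE effect minus the HPNE effect. The residual medium libraries of both lines enter all 3 comparisons, and with the opposite sign for residual medium against untreated. The 3 comparisons are therefore not independent, and opposite signs of a member between them can come from these libraries alone. For PANC-1 EV against residual medium, 4 of 9 members differed (2 higher, 2 lower), against 18.2% of all genes (7.51% higher, 10.7% lower). For PPCL-68 EV it was 3 of 9 (2 higher, 1 lower), against 23.0% (11.4% higher, 11.6% lower). For residual medium against untreated it was 5 of 9 (4 higher, 1 lower), against 38.1% (19.4% higher, 18.7% lower). The CDKN1A effect was higher in HPDE in all 3 comparisons, by 0.59 ± 0.11 (adjusted p = 0.00073), 0.48 ± 0.11 (adjusted p = 0.0028) and 0.89 ± 0.11 (adjusted p = 7.2e-06). CCND2 fell in HPDE with both sources, while its HPNE effects were 0.16 and 0.46. The line difference was -0.56 ± 0.15 (adjusted p = 0.015) for PANC-1 EV and for PPCL-68 EV -1.04 ± 0.15 (adjusted p = 7.0e-05).

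The INK4 members also parted between the lines. CDKN2B differed by -1.22 ± 0.21 (adjusted p = 0.00050) for PANC-1 EV and by 1.23 ± 0.21 (adjusted p = 0.00025) for residual medium. Its HPDE effects in these were -0.01 and -0.32, and its HPNE effects 1.21 and -1.54. CDKN2A (1.07 ± 0.23; adjusted p = 0.0019) and CDKN1B (0.58 ± 0.17; adjusted p = 0.013) differed for residual medium. CDKN2C fell less in HPDE, by 0.83 ± 0.28 (adjusted p = 0.044) with PANC-1 EV, by 0.99 ± 0.28 (adjusted p = 0.015) under PPCL-68 EV, and differed by -0.91 ± 0.28 (adjusted p = 0.016) for residual medium. The first of these was lost without any 1 HPDE library compared, HPNE PANC-1 EV replicate 2 or 3 or HPNE residual medium replicate 1 or 2 (0.66 to 0.87; adjusted p 0.059 to 0.13), the second with limma voom on recovered reads (0.98; adjusted p = 0.12), and the last without HPNE residual medium replicate 1 or 2 or HPNE untreated replicate 2 (-0.73 to -0.77; adjusted p 0.051 to 0.055).

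CCND1, CCND3 and CCNE1 did not pass in any of the 3 line comparisons with all libraries. For CCND1 the residual medium effect (-0.40; adjusted p = 0.10) passed without HPNE untreated replicate 3 (-0.53; adjusted p = 0.030) or HPNE residual medium replicate 3 (-0.61; adjusted p = 0.0019). CCND2 (0.36; adjusted p = 0.070) passed without the latter (0.43; adjusted p = 0.029), and CDKN2A with PANC-1 EV (-0.56; adjusted p = 0.096) without HPNE PANC-1 EV replicate 3 (-0.69; adjusted p = 0.049). For CCND3 and CCNE1 under the vesicle comparisons the 95% intervals reached from -0.63 to 0.48.

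**Figure D5:**
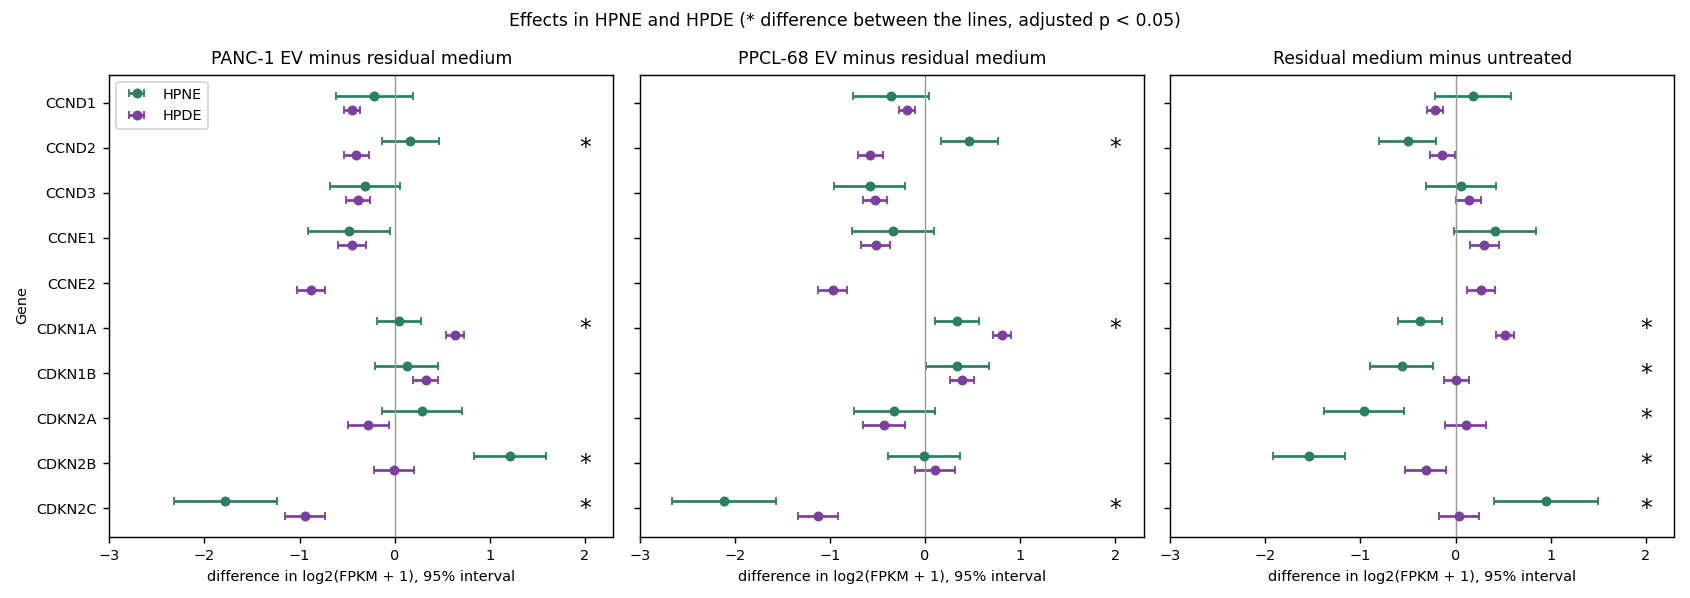
Effect of PANC-1 EV, PPCL-68 EV (each minus residual medium) and residual medium (minus untreated) on each member in HPNE (green) and HPDE (purple), as differences in log2(FPKM + 1) with 95% intervals. Asterisks mark a difference between the lines with limma adjusted p under 0.05, and CCNE2 has no HPNE value. CDKN1A lies to the right in HPDE in all 3 panels, and CDKN2B departs from 0 in HPNE for PANC-1 EV and residual medium.

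For 3 members the genes with the most similar pattern were found, as the smallest root mean square difference over 8 group means of log2(FPKM + 1) after each line was centred on its own mean. They were YLPM1 (0.052), SLC25A44 (0.052) and STEAP3 (0.055) for CCND1, against a median of 0.25 over 10482 genes. For CCNE2 they were ATP5G1 (0.044), SLC45A3 (0.085) and PHB (0.085), against a median of 0.38. CCNE2 averaged 0.873 FPKM in HPNE, under the filter, and this scale understates changes of low genes, so its HPNE pattern is damped here. For CDKN1A the nearest, MOAP1 (0.13), YPEL5 (0.13) and CTB-25B13.12 (0.14), were less close, against a median of 0.44. Group means of 3 libraries enter these values, so the spread of HPNE replicates enters with them.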

How the data were processed

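RNA from 24 libraries was sequenced by the authors after a non-directional library kit, per the labels' protocols. Per the submitters' processing notes the tools were CASAVA, STAR, HTSeq and DESeq2, with the hg19 build and no versions. The authors deposited 1 table per library with FPKM per gene, per the file headers. FPKM times gene length gave whole reads for 100% of values in every library (within 0.01), and total reads were recovered in this way. Because FPKM divides by the library total, abundant genes shift the rest; the 10 most abundant held 14.5 to 18.3% of reads in HPNE and 4.33 to 5.21% in HPDE.

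limma 3.58.1 (R 4.3.3; lmFit, eBayes with a trend) was run on log2(FPKM + 1), per line, with 12 libraries (8 residual degrees of freedom) and genes whose mean over the line was at least 1 FPKM (in either line for the untreated lines). This scale understates changes of low genes. Tests were two-sided, Benjamini-Hochberg adjusted over all genes tested, threshold 0.05. Line differences were interaction contrasts in 1 fit of 24 libraries. All 10 members are named; of each list, CDK4, CDK6, RB1, E2F1, CCNA2, MDM2 and the called genes with the 2 largest rises and falls may be named. The members and lists were chosen with earlier results of these data known. Reads carried no molecular identifiers, so copies made by PCR are not separate molecules.

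Tested on 10 sets of simulated reads with 200 genes changed 2-fold for PANC-1 EV against residual medium, the fit recovered 76 to 85.5% in HPNE (11503 genes, 6 to 11 unchanged genes called), 95.5 to 98% in HPDE (12223 genes, 2 to 14) and 80 to 91% for the line difference (10483 genes, 6 to 23). With no gene changed it called 0 to 1, 0 and 0 to 4 genes. The simulated spread was drawn for each gene on its own, so no simulated library lay apart as a whole. These values therefore cannot say how the fit behaves with the HPNE libraries that lay apart. Alternatives were a pseudocount of 0.1, no filter, size factors, a replicate block, only the libraries compared, limma voom on the recovered reads, each library left out, and, added later, the 4 HPNE libraries apart left out and a replicate block with only the HPNE vesicle libraries. In those 2 groups same-numbered libraries correlated in their deviations from the group means (r 0.57, 0.29 and 0.50 for replicates 1 to 3), so the pairing comes from the data and not from the labels; in both, replicate 1 was also the library apart.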

Additional observations from a re-analysis of the deposited data

Results flagged for a closer look

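The effects below differed between HPDE and HPNE by the interaction term (limma, adjusted over 10483 genes), given as the HPDE effect minus the HPNE effect on the log2 scale. For PANC-1 EV against residual medium these were CCND2 (-0.56), CDKN1A (0.59), CDKN2B (-1.22) and CDKN2C (0.83). For PPCL-68 EV they were CCND2 (-1.04), CDKN1A (0.48) and CDKN2C (0.99). For residual medium against untreated cells they were CDKN1A (0.89), CDKN1B (0.58), CDKN2A (1.07), CDKN2B (1.23) and CDKN2C (-0.91). The same residual medium libraries enter all 12, with opposite signs for vesicles and for residual medium, so the 12 are not independent. Of these 12, the 3 CDKN2C differences lost their call in some alternatives: for PANC-1 EV in 15 of 19, for PPCL-68 EV in 1 (limma voom on recovered reads), and for residual medium in 4.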

How the results depend on the processing

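Of 85 called member differences, 61 were called under every alternative run for them. In HPDE it was 36 of 43 and in HPNE 9 of 20. A further 51 values changed sign while called in neither fit.

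Without the filter, PPCL-68 EV against residual medium in HPNE gave 1 called member in place of 4, among the 9 tested with the filter. CCNE2, tested in this line only without the filter, also passed there (-0.71, limma adjusted p = 0.026). PANC-1 EV against untreated gave 0 in place of 3. In that limma fit 5 members had an unadjusted p under 0.05, and limma voom on recovered reads called 3. With only the libraries compared, PPCL-68 EV against residual medium gave 2. Leaving out 1 library gave, in HPNE, 2 to 5 members for PANC-1 EV and 1 to 6 for PPCL-68 EV against residual medium, 3 to 8 for residual medium against untreated, 0 to 3 for PANC-1 EV against untreated and 1 to 2 between vesicle sources, and in HPDE 3 to 4 for residual medium against untreated. Without the 4 HPNE libraries apart the counts were 5 and 8 against residual medium, 7 for PPCL-68 EV against untreated, 6 between sources, and 5 and 9 for the line differences with PPCL-68 EV and residual medium. CCND3 turned to -0.24 (from 0.08) in the last, and to -0.11 between untreated lines with size factors. The cause was not tested, beyond fewer libraries or more genes tested by construction. Calls over all genes also moved with the libraries left out, as given for HPNE, and their share is not given for the line differences. These counts therefore describe the settings and are not results about the members.

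The paired fit of the 6 HPNE vesicle libraries called 4 members in place of 1 between sources. Its pairing was picked from the data, so this count describes the setting. In the other comparisons same-numbered replicates did not all correlate above 0.1: r ran from -0.51 to 0.57 over the 18 HPNE pairs, 9 of them above 0.1, and from -0.25 to 0.15 in HPDE. With the replicate block in all groups of a line the counts were 9 and 9 for vesicles against residual medium in HPDE, 2 and 4 in HPNE, 4 for residual medium in HPDE, 3 for the PANC-1 EV line difference and 8 between untreated lines. The share of all genes is not given for this block, so these counts describe the setting and not the members.

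Calls over all genes in HPNE for PANC-1 EV against residual medium were 2784, against 1436 with only the libraries compared, 1344 to 4443 with 1 library left out and 6779 without the 4 apart.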
